A study of Mus musculus with 4 samples.

Results

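GABA-A receptors are chloride channels assembled from subunits of several classes, and they carry most fast inhibition in the cortex. Alpha and beta subunits form the GABA binding sites, and the type of alpha subunit, together with a gamma or delta subunit, sets where on the neuron the receptor sits and how it responds to drugs such as benzodiazepines. Most subunit genes lie in clusters, each of which holds genes of several classes. The 7 subunit genes described here, Gabra2, Gabra3, Gabra4, Gabra5, Gabrb1, Gabrb2 and Gabrg3, were chosen by name with earlier results of these data known. Ensembl identifiers were matched to GENCODE vM21 symbols to find them. They are 7 of 37437 genes in the tables and 7 of the 12816 genes that passed the filter of at least 1 TPM in at least 2 libraries. TPM is a gene's share of all transcripts in a library, corrected for gene length.

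RNA came from cultured mouse cortical neurons treated with an adeno-associated viral vector for knockdown. The vector targeted either Ctcf (shCTCF, 2 libraries) or, as the control, the bacterial gene lacZ (shLAC, 2 libraries). All 4 libraries thus came from virus-treated primary cultures, and no strain, age, vector promoter or time after infection is stated in the labels. No label tells whether the replicates are separate cultures, and the p-values cover only the spread among these libraries, which can be technical. CTCF is a DNA-binding zinc finger protein of insulators that anchors chromatin loops together with cohesin, and the comparison addressed which transcripts differ in level when it is depleted. TPM keeps no sequencing depth; the depth is therefore unknown, and counting error cannot be given.

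The targeted gene, Ctcf, was at 3.25 and 3.39 scaled TPM in the shCTCF libraries and at 8.15 and 8.80 scaled TPM in the shLAC libraries, and its mean under knockdown was 39.1% of control. The control library shLAC replicate 2 held 20.2% of its TPM in 13 satellite-like predicted genes, which were picked by their high values there. Their share was 1.29% and 1.86% in the shCTCF libraries and 0.405% in shLAC replicate 1. All TPM of a library add up to the same number, and as deposited the median log2 fold change of all tested genes was 0.17. Values were therefore divided by a median-ratio factor per library (scaled TPM), which brought that median to 0.00.

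In bulk RNA, fewer cells of a type and less RNA per cell cannot be told apart, so the markers of the cell types in the culture are given first. Neuronal markers were abundant. The summed scaled TPM of 12 excitatory neuron markers was 313 and 300 in shCTCF and 264 and 273 in shLAC, and that of 14 inhibitory neuron markers, which overlapped between the groups, was 291 and 291 in shCTCF and 293 and 281 in shLAC. The sum of 10 astrocyte markers was 112 and 88.9 in shCTCF and 140 and 117 in shLAC, lower in both knockdown libraries. Excitatory sums were higher in both knockdown libraries, but a sum follows its most abundant genes. Of 11 tested excitatory markers, 7 had a positive log2 fold change and 4 a negative one. The signs were 7 positive and 5 negative among 12 tested inhibitory markers, and 1 positive and 9 negative among 10 astrocyte markers. All 7 tested oligodendrocyte lineage markers and all 8 proliferation and progenitor markers were positive. The part of these differences in the subunit results was not tested. Microglial, endothelial and fibroblast lists summed to at most 3.26 scaled TPM in any library, and the endothelial marker Cldn5 was listed at 0 in all 4. Sums of 8 oligodendrocyte lineage markers (83.9 and 75.9 in shCTCF, 82.6 and 69.4 in shLAC) overlapped between the groups. Sums of 8 proliferation and progenitor markers were 94.2 and 94.1 scaled TPM in shCTCF and 86.9 and 86.4 scaled TPM in shLAC. None of the markers of these 8 cell types was called after scaling, over all tested genes with limma. An unadjusted limma p below 0.05, in either direction, was met by 20.0% of all tested genes. It was met by 6 of 11 tested excitatory, 3 of 12 inhibitory, 3 of 10 astrocyte, 1 of 1 fibroblast and 1 of 8 proliferation markers. As deposited, the astrocyte genes Aqp4 (limma adjusted p = 1.35e-05) and Slco1c1 (limma adjusted p = 0.0311) fell. Standard errors of that fit come from the trend over genes and not from a gene's own spread. In a fit restricted to protein-coding genes (the coding fit, described with Gabra5), the astrocyte water channel gene Aqp4 (log2 fold change -1.07, limma adjusted p = 0.0151) and the glutamate transporter gene Slc1a3 (-0.52, limma adjusted p = 0.0204) fell, as did the interneuron marker Calb2 and the fibroblast marker Dcn, while the inhibitory neuron marker Slc32a1 rose.

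The genes lie on 4 chromosomes. On chromosome 7 (GRCm38, all positions from GENCODE vM21) Gabra5 (ENSMUSG00000055078) spans 57407672 to 57510059 and Gabrg3 (ENSMUSG00000055026) spans 56716465 to 57387188, both on the minus strand. On chromosome 5, Gabra2 (ENSMUSG00000000560, 70957597 to 71095849) and Gabra4 (ENSMUSG00000029211, 71569749 to 71658308) are on the minus strand and Gabrb1 (ENSMUSG00000029212, 71658113 to 72149037) is on the plus strand. Gabrb2 (ENSMUSG00000007653) is on chromosome 11 from 42419757 to 42629028 on the plus strand, and Gabra3 (ENSMUSG00000031343) is on chromosome X from 72432681 to 72656848 on the minus strand. All are protein-coding. The 5′ ends of Gabra4 and Gabrb1 overlap head to head, and 46 exonic bases of each are covered by exons of the opposite strand. In Gabra5 such bases number 148 of 2974 (4.98%). Whether strand was used in counting is not given in the sources used here, so reads from these bases cannot be assigned to one strand.

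The promoter windows of both chromosome 7 members and of the head-to-head pair on chromosome 5 are shown, because the comparison by cluster turns on these genes. Each window runs from 250 bases before to 50 after the RefSeq start (build GRCm38.p6, 5′ to 3′ on the gene's own strand). Capitals mark CCCTC, the letters that gave CTCF its name, and CCAGGGGG, the centre of the usual CTCF consensus, each on either strand (GAGGG is the reverse form of CCCTC).
Gabra5 (chr7:57510010-57510309, minus strand): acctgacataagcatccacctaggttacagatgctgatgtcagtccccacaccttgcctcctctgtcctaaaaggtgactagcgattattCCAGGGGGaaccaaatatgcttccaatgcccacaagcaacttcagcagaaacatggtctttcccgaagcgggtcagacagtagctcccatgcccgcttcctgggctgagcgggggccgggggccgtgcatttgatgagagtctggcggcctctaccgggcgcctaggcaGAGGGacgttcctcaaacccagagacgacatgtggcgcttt
Gabrg3 (chr7:57387166-57387465, minus strand): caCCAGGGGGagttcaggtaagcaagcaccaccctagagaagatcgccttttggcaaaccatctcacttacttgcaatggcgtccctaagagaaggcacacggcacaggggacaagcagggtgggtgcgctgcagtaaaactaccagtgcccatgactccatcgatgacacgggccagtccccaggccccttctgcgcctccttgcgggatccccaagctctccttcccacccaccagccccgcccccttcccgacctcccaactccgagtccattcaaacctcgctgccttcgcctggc
Gabra4 (chr5:71658259-71658558, minus strand): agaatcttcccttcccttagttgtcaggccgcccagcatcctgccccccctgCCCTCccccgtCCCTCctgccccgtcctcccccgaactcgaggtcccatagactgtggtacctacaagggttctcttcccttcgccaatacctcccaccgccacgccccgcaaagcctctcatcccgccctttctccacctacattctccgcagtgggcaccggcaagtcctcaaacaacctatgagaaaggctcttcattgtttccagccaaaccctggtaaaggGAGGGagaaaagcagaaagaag
Gabrb1 (chr5:71657671-71657970, plus strand): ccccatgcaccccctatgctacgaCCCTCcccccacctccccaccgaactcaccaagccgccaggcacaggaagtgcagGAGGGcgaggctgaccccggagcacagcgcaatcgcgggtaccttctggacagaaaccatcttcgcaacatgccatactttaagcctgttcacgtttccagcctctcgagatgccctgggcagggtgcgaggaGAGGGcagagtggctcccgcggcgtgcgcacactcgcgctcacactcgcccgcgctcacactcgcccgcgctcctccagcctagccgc

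All 7 members had at least 1 RefSeq window, 11 in all, and both strands were searched. CCCTC was in the windows of 5 members and in neither Gabra3 nor Gabrg3, and 66.0% of 32851 mouse windows of the same length held it. CCAGGGGG, which was added after the sequences had been seen, was in the windows of 2 members, Gabra5 (160 bases upstream of the start) and Gabrg3 (248 bases upstream), and in 2.06% of all windows. After scaling, the log2 fold change was -0.92 for Gabra5 (limma adjusted p = 0.0352) and 0.16 for Gabrg3 (limma adjusted p = 0.324). Gabrg3 did not pass the test, so its direction of change is not established. The long CTCF core motif (0.0365% of windows), the cAMP response element TGACGTCA (1.79%) and the EGR site GCGTGGGCG (0.612%) were in none of the 11 windows. A match is a description of letters and not of binding, and none of these motif counts was tested against the expression values.

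Among the alpha subunits, Gabra5 was the member that fell. It encodes the alpha5 subunit, which is known for extrasynaptic receptors and tonic inhibition in hippocampal and cortical pyramidal neurons. Gabra5 was at 20.83 and 18.48 TPM in the shCTCF libraries and at 38.73 and 28.27 TPM in the shLAC libraries. Both knockdown values lay below both control values. After scaling, the values were 19.0 and 17.6 in shCTCF and 37.2 and 34.0 in shLAC, so the control libraries drew closer together. The scaled means were 18.3 ± 1.0 TPM in shCTCF and 35.6 ± 2.25 TPM in shLAC (SD, n = 2 each), and the knockdown mean was 51.4% of the control mean. The log2 fold change of scaled TPM + 1 was -0.92 (SE 0.0685, 95% interval -1.11 to -0.74, limma adjusted p = 0.0352 over 12816 genes). Of all tested genes, 1.05% were called, 0.679% lower and 0.367% higher.

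Of the 12816 tested genes, 67 had a more negative log2 fold change than Gabra5, and 15 of these were among the 87 genes called lower. In a fit restricted to 11268 protein-coding genes of at least 300 nt, 6.06% of genes were called, 3.48% lower and 2.58% higher. There the log2 fold change of Gabra5 was -0.92 (limma adjusted p = 0.00322, SE 0.0630), and 11 of the 392 genes called lower had a more negative one. As deposited, without scaling, it was -0.73 (limma adjusted p = 0.0406, SE 0.222), where 2.82% of tested genes were called, 0.905% lower and 1.92% higher. Gabra5 was lower whichever library was left out, which is no separate evidence, because its groups did not overlap. Over all tested genes the call was lost without shCTCF replicate 1, shCTCF replicate 2 or shLAC replicate 2. It was also lost with no filter on low values (limma adjusted p = 0.0963) and with a replicate block (limma adjusted p = 0.0572). Among coding genes alone, the log2 fold change of Gabra5 ran from -0.98 to -0.857 when 1 of the 4 libraries was left out. Those coding runs were chosen after the data were seen.

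The other alpha subunit genes did not pass the test. Gabra2, whose alpha2 subunit is common at synapses of the forebrain and on the axon initial segment, was at 33.94 and 34.59 TPM in shCTCF and at 32.26 and 31.61 TPM in shLAC. As deposited both knockdown values were above both control values, while after scaling the groups overlapped at 31.9 ± 1.38 in shCTCF and 34.5 ± 4.97 in shLAC (SD, n = 2 each). Its log2 fold change was -0.10 (limma adjusted p = 0.648, SE 0.108) after scaling and 0.10 as deposited, so its sign depended on the scaling. With 1 library left out it ran between -0.24 and 0.04, positive without shLAC replicate 2. In the coding fit without shLAC replicate 1 it was -0.24.

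Gabra3, whose alpha3 subunit is prominent in the developing cortex, was at 18.32 and 15.35 TPM in shCTCF and at 17.10 and 14.79 TPM in shLAC. Its libraries overlapped on either scale, with a log2 fold change of -0.12 (limma adjusted p = 0.472, SE 0.0828) after scaling and 0.07 as deposited. Gabra4 encodes alpha4, a benzodiazepine-insensitive subunit that often pairs with delta in extrasynaptic receptors. It was at 21.57 and 19.25 TPM in shCTCF and at 21.12 and 15.99 TPM in shLAC. Its scaled values overlapped, with means of 19.0 ± 0.959 in shCTCF and 19.7 ± 0.742 in shLAC (SD, n = 2 each), and the log2 fold change was -0.05 (limma adjusted p = 0.654, SE 0.0582) after scaling and 0.14 as deposited.

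**Figure D1:**
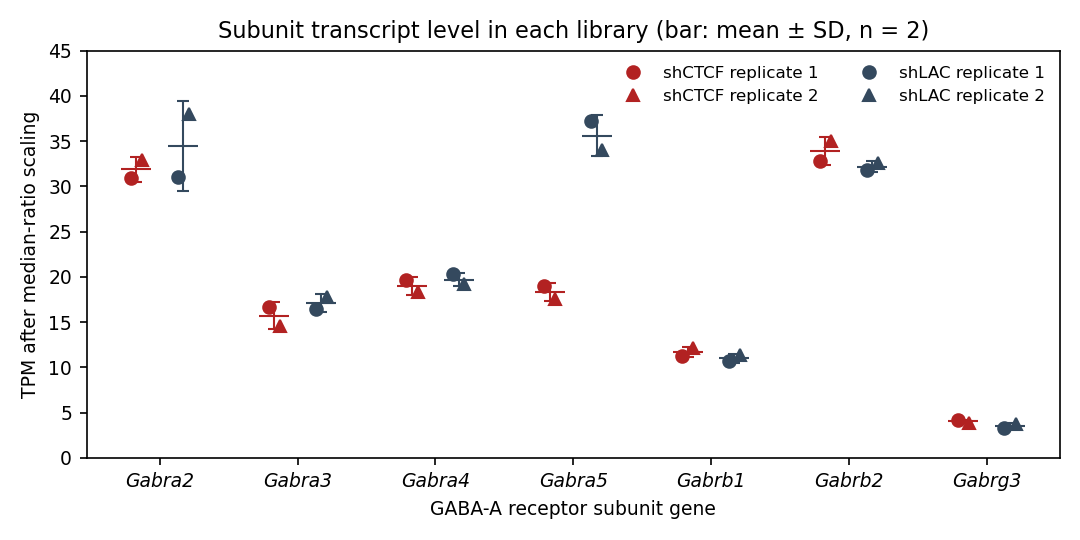
Scaled TPM of each of the 7 subunit genes on the vertical axis, with shCTCF (red) left of shLAC (dark blue); circles are replicate 1, triangles replicate 2, and bars the mean ± SD of 2 libraries. Gabra5 sits at 19.0 and 17.6 in shCTCF and at 37.2 and 34.0 in shLAC, while the groups of the other genes overlap or lie close together.

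Gabrb1, a beta subunit gene, was at 12.39 and 12.72 TPM in shCTCF and at 11.10 and 9.49 TPM in shLAC. Its scaled values overlapped, and the log2 fold change was 0.08 (limma adjusted p = 0.529, SE 0.0615). Gabrb2, whose beta2 subunit is part of the most common synaptic receptor of the adult brain, was at 35.94 and 36.77 TPM in shCTCF and at 33.13 and 27.13 TPM in shLAC. After scaling it was at 32.8 and 35.0 in shCTCF and 31.8 and 32.6 in shLAC, so the knockdown values lay above the control values by a small margin. Its log2 fold change was 0.07 (limma adjusted p = 0.502, SE 0.0518).

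Gabrg3, the lowest of the 7 in level, encodes a gamma subunit, the class through which receptors bind benzodiazepines and cluster at synapses. It was at 4.54 and 4.10 TPM in shCTCF and at 3.41 and 3.09 TPM in shLAC. The scaled values were 4.14 and 3.90 in shCTCF and 3.27 and 3.71 in shLAC, higher in both knockdown libraries. The log2 fold change of 0.16 (limma adjusted p = 0.324, SE 0.0751, 95% interval -0.04 to 0.36) did not pass, and since TPM + 1 was used, it understates the change of so low a gene.

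Thus 1 of 7 members was called lower and 0 higher, where 1.05% of all tested genes were called in either direction. The members were chosen with earlier results of these data known, so this count is no independent comparison. The adjusted p of the other 6 members ran from 0.324 to 0.654 over all tested genes and from 0.251 to 0.649 in the coding fit. The median scaled log2 fold change of the 7 was -0.05, against 0.00 for all tested genes. The 95% intervals of the other 6 members lay between -0.39 and 0.36, and none of them reached the interval of Gabra5. The groups did not overlap after scaling in 3 members (Gabra5 below, Gabrb2 and Gabrg3 above), against 53.0% of all tested genes (26.9% with shCTCF above and 26.1% with shCTCF below), a share near that of the members. As deposited, 6 of 7 log2 fold changes were positive and that of Gabra5 was negative. The median of all tested genes was 0.17 there, so positive signs were common and say nothing particular of the members. With 2 libraries per group, an exact permutation test of a single gene, 2-sided, cannot go below p = 0.333.

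**Figure D2:**
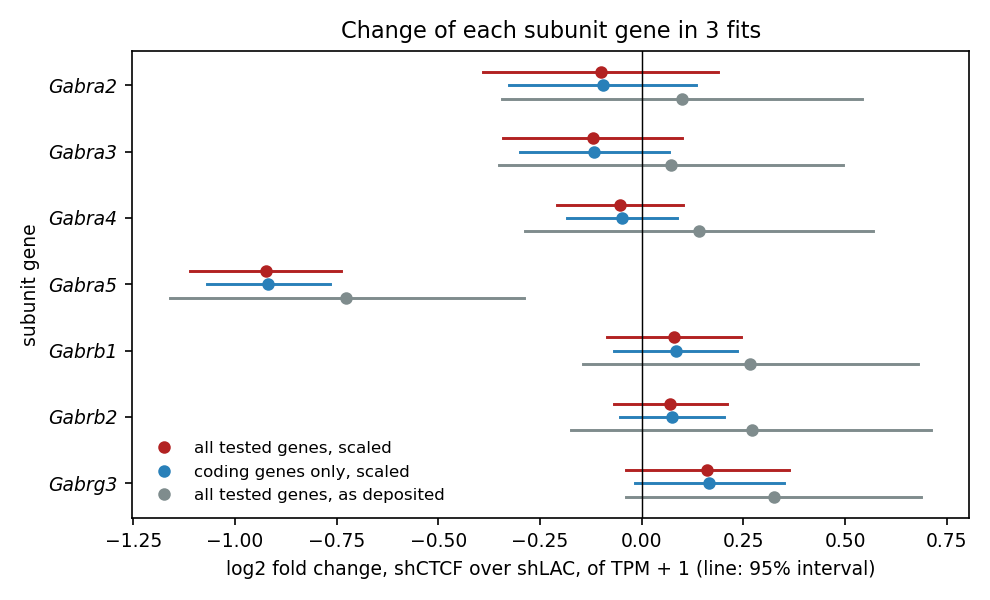
Log2 fold change of TPM + 1, shCTCF over shLAC, for each subunit gene (rows) in 3 fits: all tested genes after scaling (red), coding genes only after scaling (blue) and all tested genes as deposited (grey); lines are 95% intervals. Gabra5 lies at -0.92, -0.92 and -0.73, and in each fit the intervals of the other 6 genes include 0.

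The order of levels among the 7 genes differed between the groups at the top. In shCTCF, scaled means ran from Gabrb2 (33.9) through Gabra2 (31.9), Gabra4 (19.0), Gabra5 (18.3), Gabra3 (15.7) and Gabrb1 (11.7) to Gabrg3 (4.02). In shLAC they ran from Gabra5 (35.6) through Gabra2 (34.5), Gabrb2 (32.2), Gabra4 (19.7), Gabra3 (17.1) and Gabrb1 (11) to Gabrg3 (3.49). Gabra5 thus had the fourth highest level in shCTCF, where its libraries overlapped those of Gabra4, and the highest in shLAC, where they overlapped those of Gabra2. Gabrb2 and Gabra2 also changed places, but their libraries overlapped within each group. All other neighbours in the order did not overlap.

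The share of each alpha gene within a library does not depend on any scaling between libraries. Gabra5 made up 22% and 21.1% of the summed TPM of the 4 alpha member genes in shCTCF and 35.5% and 31.2% in shLAC. Its mean share was 21.5% ± 0.655 in shCTCF and 33.3% ± 3.03 in shLAC (SD, n = 2 each), a difference of -11.8 percentage points. With 1 library left out the difference ran from -13.9 to -9.64. Its sign could not change there, because both shCTCF shares lay below both shLAC shares. The shares of Gabra2 (35.9% and 39.5% in shCTCF, 29.5% and 34.9% in shLAC), Gabra3 (19.4% and 17.5% in shCTCF, 15.7% and 16.3% in shLAC) and Gabra4 (22.8% and 22% in shCTCF, 19.3% and 17.6% in shLAC) were all higher in both knockdown libraries. Shares must add to 100, so a lower share of one gene raises the others. They cover these 4 genes only and not every alpha subunit gene.

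**Figure D3:**
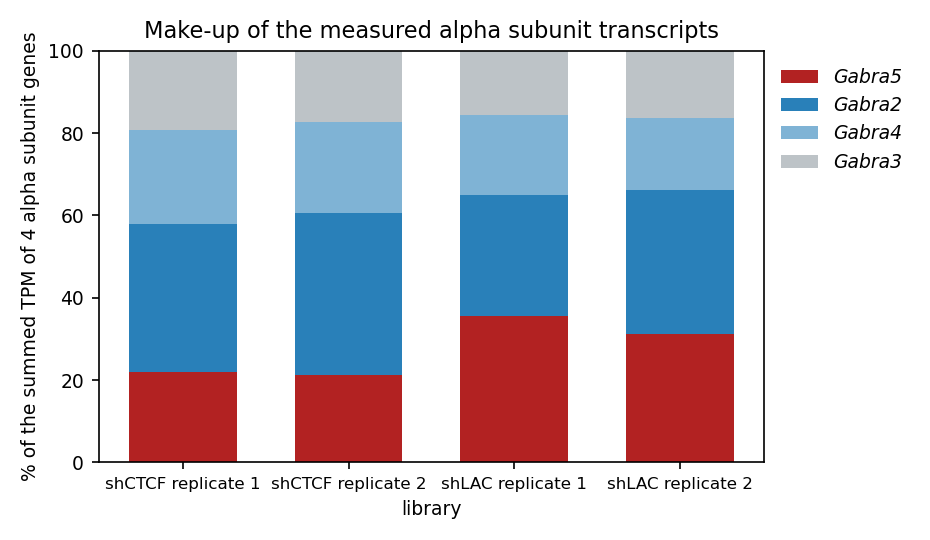
Percent of the summed TPM of Gabra5 (red), Gabra2 (blue), Gabra4 (light blue) and Gabra3 (grey) in each library, with the shCTCF libraries left of the shLAC libraries. The red part is 22% and 21.1% in shCTCF and 35.5% and 31.2% in shLAC.

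Ratios within a library gave the same order without scaling. The ratio of Gabra5 to Gabra4 was 0.966 and 0.960 in shCTCF and 1.83 and 1.77 in shLAC. That of Gabra5 to its cluster neighbour Gabrg3 was 4.59 and 4.51 in shCTCF and 11.4 and 9.15 in shLAC. The ratio of Gabra5 to each of the other 6 members was lower in both shCTCF libraries than in either shLAC library.

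By genomic cluster, the chromosome 7 members summed to 23.1 and 21.5 scaled TPM in shCTCF and to 40.4 and 37.7 in shLAC. The knockdown mean was 57.1% of the control mean. This sum was carried by Gabra5, since Gabrg3 alone stood at 115% of its control mean. The 3 chromosome 5 members, which span 1190 kb, summed to 61.9 and 63.3 scaled TPM in shCTCF and to 61.9 and 68.6 in shLAC, or 96.0% of control, and the groups overlapped. Gabrb2 on chromosome 11 was at 105% and Gabra3 on chromosome X at 91.6% of the control mean. All 7 members together were at 87.5% of control, and the 6 without Gabra5 at 98.4%. These sums cover the members only and leave out other tested subunit genes of the same clusters.

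Genes within 1 Mb of a member were few around Gabra5: 2 tested genes lay there, one of them Gabrg3, and neither was called. Around all 7 members, 30 tested genes that are no member lay within 1 Mb; over all tested genes 0 were called with limma, and 5 had an unadjusted p below 0.05, against 20.0% of all tested genes. Their median log2 fold change was -0.04. In the coding fit, 28 of these genes were tested, and 1 rose and 1 fell, a share near the 6.06% of all coding genes called there. Both are named after their values were seen and say nothing particular of the neighbourhood. Pnma3, a paraneoplastic antigen family gene near Gabra3, was at 4.70 and 4.40 TPM in shCTCF and at 3.11 and 2.56 TPM in shLAC (log2 fold change 0.38, limma adjusted p = 0.0241 in the coding fit and 0.0759 over all tested genes). Nipa2, a magnesium transporter gene near Gabrg3, was at 8.50 and 7.12 TPM in shCTCF and at 11.34 and 8.57 TPM in shLAC (log2 fold change -0.49, limma adjusted p = 0.0174 in the coding fit and 0.0839 over all tested genes). Its groups did not overlap after scaling.

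**Figure D4:**
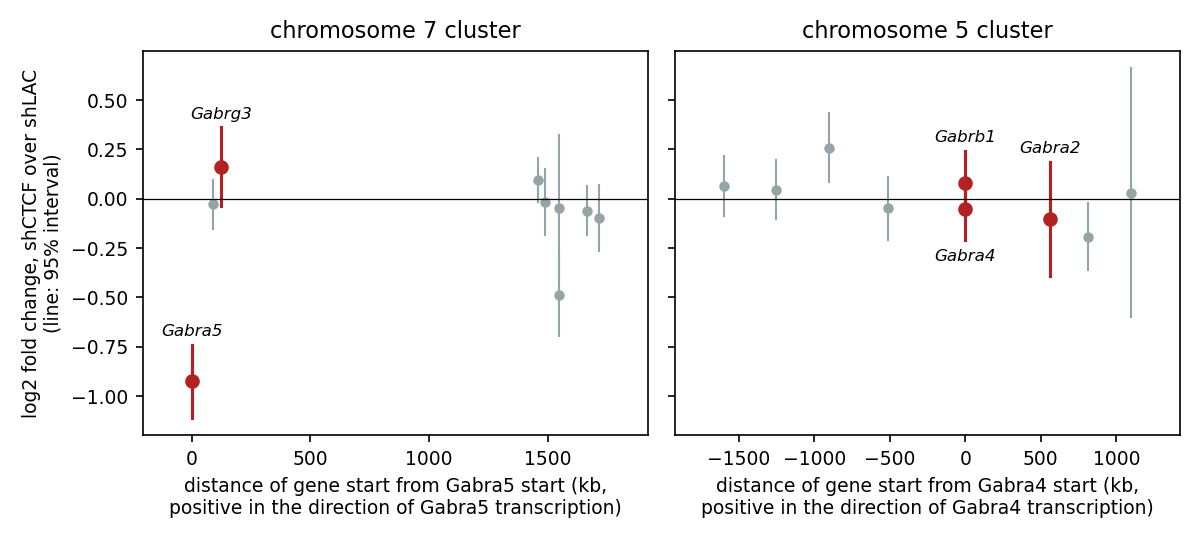
Log2 fold change, shCTCF over shLAC, of scaled TPM + 1 (vertical axis, lines are 95% intervals) against the distance of each gene's start from that of Gabra5 (left) or Gabra4 (right) in kb, for the members (red, named) and other tested genes within 1 Mb of a member (grey). In the chromosome 7 cluster Gabra5 lies at -0.92 and Gabrg3 at 0.16; the chromosome 5 members lie between -0.10 and 0.08.

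The subunit genes that are no member numbered 12, of which 5 passed the filter. After scaling, all 5 had a negative log2 fold change (-0.192 to -0.0291, median -0.0952). None was called over all tested genes or in the coding fit with limma, and 1 of 5 had an unadjusted p below 0.05, the same share as the 20.0% of all tested genes. That gene was Gabrg1, a gamma subunit gene of the chromosome 5 cluster, at 3.82 and 3.38 TPM in shCTCF and 4.05 and 3.37 TPM in shLAC (log2 fold change -0.19, limma adjusted p = 0.216). Gabrd, the delta subunit of extrasynaptic receptors, was at 4.06 and 4.03 TPM in shCTCF and 4.10 and 3.17 TPM in shLAC (log2 fold change -0.03, limma adjusted p = 0.799). Both were named after their values were seen. The rho, epsilon, pi, theta and alpha6 genes did not reach the filter.

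Of 12 genes of the inhibitory postsynaptic scaffold, 0 were called over all tested genes or in the coding fit, and 4 had an unadjusted p below 0.05 (20.0% of all tested genes). Their median log2 fold change was 0.07. Pfn1, an actin binding protein that also binds the scaffold protein gephyrin, was at 87.82 and 87.11 TPM in shCTCF and at 88.37 and 71.82 TPM in shLAC (log2 fold change -0.07, limma adjusted p = 0.444).

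Of 15 receptor trafficking genes, 0 were called over all tested genes and 2 had an unadjusted p below 0.05 (20.0% of all tested genes). Trak1, a motor adaptor, was at 22.35 and 21.97 TPM in shCTCF and at 18.54 and 14.47 TPM in shLAC, and rose in the coding fit (log2 fold change 0.22, limma adjusted p = 0.0499). Rdx, which encodes radixin, the anchor of alpha5 receptors at extrasynaptic sites, was at 17.47 and 16.60 TPM in shCTCF and at 17.89 and 12.90 TPM in shLAC; it had a log2 fold change of -0.04 (limma adjusted p = 0.776) and was named after its values were seen. The most abundant were Ap2m1, a clathrin adaptor subunit (0.00, limma adjusted p = 0.975), and Gabarapl1, a relative of the GABA-A receptor associated protein (0.02, limma adjusted p = 0.846).

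Genes of GABA supply and chloride transport were not called over all tested genes either, with 2 of 7 tested supply genes and 3 of 8 chloride genes at an unadjusted p below 0.05 (20.0% of all tested genes). Gad1, a GABA-synthesising decarboxylase, was at 89.47 and 82.96 TPM in shCTCF and at 81.72 and 59.08 TPM in shLAC (log2 fold change 0.10, limma adjusted p = 0.434). In the coding fit Aldh5a1, the last enzyme of GABA breakdown, fell, at 5.87 and 6.27 TPM in shCTCF and 8.35 and 7.66 TPM in shLAC (log2 fold change -0.52, limma adjusted p = 0.0216), and the vesicular transporter gene Slc32a1 rose (0.36, limma adjusted p = 0.0462).

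Slc12a5 encodes KCC2, the neuronal chloride extruder that makes GABA inhibitory. It was at 34.12 and 31.77 TPM in shCTCF and at 26.62 and 21.11 TPM in shLAC, and it rose in the coding fit (log2 fold change 0.26, limma adjusted p = 0.0283) but did not pass over all tested genes (0.0859). Clcn2, a chloride channel gene, was at 5.49 and 5.50 TPM in shCTCF and at 3.64 and 2.69 TPM in shLAC. It rose in the coding fit (log2 fold change 0.49, limma adjusted p = 0.0130) and as deposited (limma adjusted p = 0.0238), but did not pass over all tested genes after scaling (0.0610). Clcn3, an endosomal chloride exchanger, had a log2 fold change of -0.09 (limma adjusted p = 0.352). None of the 4 tested genes of the metabotropic GABA-B receptor was called (1 at an unadjusted p below 0.05, against 20.0% of all tested genes), with Gabbr1 at 0.04 (limma adjusted p = 0.648) and Gabbr2 at -0.10 (limma adjusted p = 0.383).

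The genes whose pattern over the 4 libraries was nearest to that of Gabra5 were taken by root-mean-square distance of log2(scaled TPM + 1) from the shLAC mean, among 9677 protein-coding genes outside all lists with a mean of at least 2 TPM. They were Mthfd2, a mitochondrial enzyme of folate metabolism (distance 0.0480), Ajm1, a component of apical junctions (0.0644), Zfp991, a zinc finger gene of a multigene family whose reads the counting could split (0.0671) and Tmem14a, a transmembrane protein gene (0.0721). Mthfd2 was at 2.11 and 1.99 TPM in shCTCF and at 4.68 and 3.50 TPM in shLAC. All 4 were far lower in level than Gabra5, at no more than 6.79 TPM in any library, and TPM + 1 understates the change of low genes. Scaled means of the 4, in the order named, stood at 43.9%, 47.1%, 45.9% and 46.6% of control, against 51.4% for Gabra5. This likeness is a description over 4 libraries in 2 groups and was not tested.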

How the data were processed

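Total RNA of 4 libraries (shCTCF and shLAC, 2 each, grouped by the labels) was sequenced as paired reads. The deposited files held TPM per Ensembl gene as the authors made them; RSEM 1.2.28, CASAVA and mm10 are named in the submitters' processing notes, while for annotation release, aligner settings and strandedness nothing is stated. Within a library TPM shares a fixed total, so abundant RNA lowers all other genes, and depth is lost. GENCODE vM21 (GRCm38, the assembly of mm10) named 37060 of 37437 identifiers.

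TPM was divided by median-ratio factors (0.832 for shLAC replicate 2, 1.04 to 1.10 for the others), and genes that reached 1 TPM in 2 or more libraries entered limma 3.58.1 (R 4.3.3) as log2(TPM + 1), with a trended prior and Benjamini-Hochberg adjustment over 12816 genes at 0.05. This scale understates the change of low genes. Without scaling, limma estimated infinite prior degrees of freedom, so standard errors there come from the trend over genes and not from a gene's own spread. The coding fit left out 13 satellite-like predicted genes, which were picked by their high values in shLAC replicate 2. Alternatives were other scalings, filters, pseudocounts and priors, a block for replicate number, and the omission of each library, where the lone library is assumed to vary as the other group does.

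The members and lists were chosen with earlier results of these data known. Named genes were the members and, per list, up to 4 called genes or else the 2 of highest mean TPM; others are marked as named after their values were seen. Some genes the rule would name are not reported here. Promoters are from RefSeq, GRCm38.p6.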

Additional observations from a re-analysis of the deposited data

How the results depend on the processing

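Gabra5 was lower in shCTCF under every alternative run, with log2 fold changes from -0.99 to -0.73, but it was no longer called when the filter on low values was dropped (-0.92, limma adjusted p = 0.0963; 0 members called), with a replicate block (-0.92, limma adjusted p = 0.0572; 0 members called) and without 3 of the 4 libraries in turn (-0.99 to -0.87, limma adjusted p 0.0675 to 0.204, 0 members called). Without shLAC replicate 1 it was called (-0.857, limma adjusted p = 0.0443, 1 member called). The deviations of same-numbered libraries correlated at r = 0.0817 across genes, so the numbers were not taken to pair the libraries; the block left 14 genes called (5 higher, 9 lower), against 134 (47 and 87). As deposited, 362 genes were called (246 higher), Gabra2 (0.0986), Gabra3 (0.0722) and Gabra4 (0.141) turned positive, and the cluster ratios were 1.11 on chromosome 5 and 0.652 on chromosome 7. Coding genes only gave 683 calls (291 higher, 392 lower) and 2 called neighbours, no filter 27 (12 and 15), a mean of at least 5 TPM 59 (21 and 38; Gabrg3 left out) and a robust prior 324 (113 and 211) with 1 neighbour. With 1 library left out, 9 to 101 genes were called (2 to 42 higher, 7 to 64 lower; fewest without shCTCF replicate 1), and Gabra2 ranged from -0.24 to 0.04. In the coding fit with 1 library left out, chosen after the data were seen, Gabra2 ranged from -0.242 to 0.0506 and turned positive without shLAC replicate 2. Gabra5 ranged from -0.98 to -0.857 there. Causes of the other changes were not tested. Gabrb1, Gabrb2 and Gabrg3 kept their sign and were not called under any alternative that tested them. Depth is unknown, and 2 libraries per group limit all tests.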
